A study of Mus musculus with 58 samples.

Results

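Steady-state RNA was compared in mES cells before and after 24 h of induced loss of RBBP5. The comparison used all reads per gene of the RBBP5–FKBP SLAM-seq libraries, with or without a T>C conversion, in the 3 libraries of 0 h and the 3 libraries of 24 h, 6 of the 58 libraries of the series. The cells were E14 mouse embryonic stem cells of the 129/Ola background, grown on gelatin in serum with LIF. Both alleles of Rbbp5 carried the FKBP12(F36V) tag with HA epitopes, in a line that the methods describe as clonal, and no untagged line entered the comparison. The tag lets the ligand dTAG-13 direct the fusion protein to degradation, and the cells received dTAG-13 for 0 h or 24 h. Cells of every library, 0 h included, were also incubated with 100 µM 4-thiouridine (4SU), a uridine analogue, for 60 min before RNA isolation, and the reads came from the 3′ ends of mRNA. The question was which mRNAs differ in amount 24 h after the trigger for RBBP5 degradation, as opposed to which are newly made.

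RBBP5 is a core subunit of the SET1/COMPASS complexes, in which a catalytic subunit (SETD1A, SETD1B or KMT2A to KMT2D) works on a scaffold of WDR5, RBBP5, ASH2L and DPY30 to methylate histone H3 at lysine 4. The trimethylated form, H3K4me3, marks the promoters of active genes, and the monomethylated form marks enhancers. The amount of an mRNA depends on its synthesis and its decay, so a stable mRNA can keep its level for hours after its synthesis has changed.

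The 0 h libraries held 2165418 to 2852331 reads in 3′ UTR intervals of protein-coding genes and the 24 h libraries 2074731 to 2257486. T>C reads, which mark RNA made during the 4SU pulse, made up 9.10% to 10.1% of the reads at 0 h and 4.85% to 5.33% at 24 h. A read was seen for 10974 to 11072 genes per library at 0 h and for 11100 to 11567 at 24 h, and at an equal depth of 1721185 reads for 10801 to 10969 and 10992 to 11459 genes (exact two-sided permutation p = 0.1, which is as small as 3 libraries against 3 can give). In a principal component analysis of the 12 RBBP5–FKBP libraries of 0, 2, 8 and 24 h, component 1 (27.6% of the variance) separated 0 h and 2 h from 8 h and 24 h. Replicate 1 of 0 h and replicate 2 of 8 h stood apart from the rest on component 2 (12.8%), and counts are also given without them below. Levels are given as CPM, read counts scaled to a common TMM-adjusted library size, a scaling that sets most genes to no change, so a shift shared by all mRNAs would not be seen. In bulk samples, fewer cells of a type and less RNA per cell cannot be told apart. Of the 31 genes on a list of naive pluripotency markers, 29 were expressed highly enough to be tested, with Pou5f1, Sox2, Nanog, Klf4, Esrrb and Zfp42 among them, and their summed level was 10330 to 10415 CPM at 0 h and 10110 to 10450 CPM at 24 h.

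At 24 h, 420 genes had fallen and 290 had risen, 4.34% and 3.00% of the 9676 genes tested (edgeR quasi-likelihood test, Benjamini-Hochberg adjusted p below 0.05). Of these, 177 fell and 160 rose by more than 2-fold, 1.83% and 1.65% of the genes tested. The median log2 fold change over all genes tested was 0.02. Without replicate 1 of 24 h the numbers that passed were 259 and 146, and without replicate 3 of 24 h they were 266 and 139. The higher genes also numbered 182 without replicate 3 of 0 h and 165 without replicate 2 of 24 h, and more than 2-fold higher genes numbered 93 and 102 without replicates 1 and 3 of 24 h. Leaving out replicate 1 of 0 h together with replicate 2 of 8 h raised the numbers to 577 and 479. In 170 of the 177 genes and in 157 of the 160 genes, the 24 h libraries lay entirely below or above the 0 h libraries, which was so for 13.9% (below) and 13.8% (above) of all genes tested.

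The levels of the genes that fell and of those that rose come from the libraries that chose them, and a gene could enter the test through its 24 h level alone, so they are given as a description. The median level of the 177 genes was 46.3 CPM at 0 h and 18.0 CPM at 24 h, whereas that of the 160 genes was 11.2 CPM at 0 h and 33.4 CPM at 24 h. Over all genes tested the medians were 30.2 CPM and 30.8 CPM. Of the 160 genes, 38 (23.8%) had a mean of fewer than 10 reads at 0 h, against 6.50% of all genes tested, and 23 had no read in at least 1 library of 0 h. Of the 177 genes, 28 (15.8%) had a mean of fewer than 10 reads at 24 h, against 8.09% of all genes tested, and 14 had no read in at least 1 library of 24 h. For such genes a fold change is not well determined. The larger number of genes with a read at 24 h moved with the genes that rose, and its part in the result was not tested.

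**Figure D1:**
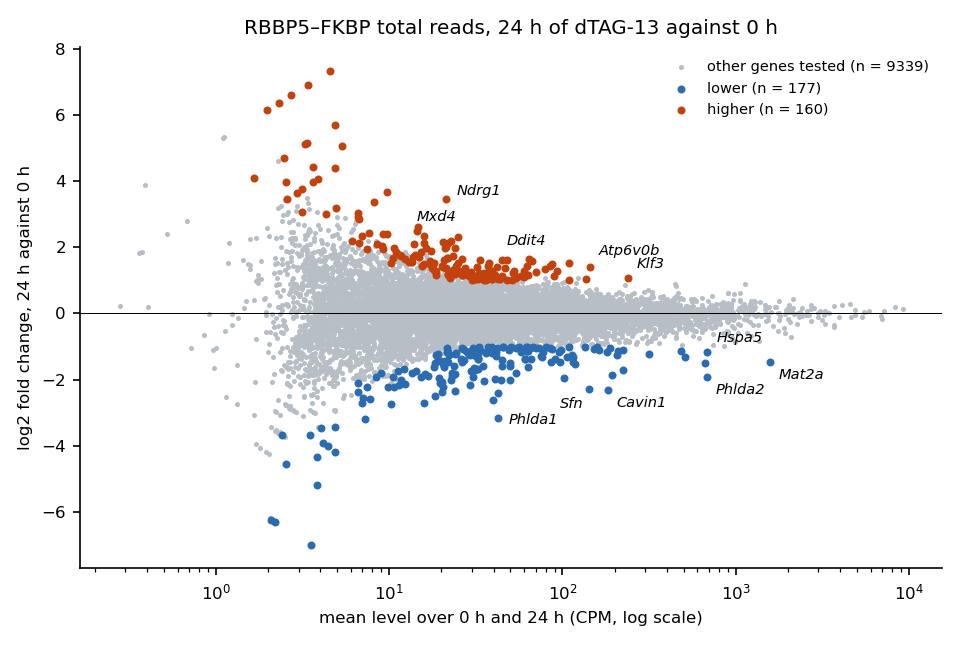
Log2 fold change of total reads at 24 h against 0 h (vertical axis) by mean CPM over the 6 libraries (horizontal axis, log scale) for the 9676 genes tested, with the 177 lower and 160 higher genes coloured. Genes far above 0 lie mostly at low levels, and the lower genes reach levels as high as that of Mat2a.

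The transcript of the targeted gene was measured first. Rbbp5 (ENSMUSG00000026439, chromosome 1 from 132477365 to 132505659, plus strand, GRCm38) had 45.1, 50.1 and 76.5 CPM in the 0 h libraries and 31.9, 36.5 and 39.7 CPM in the 24 h libraries. Every 24 h library was below every 0 h library, but the change did not pass the test (log2 fold change −0.67, standard error 0.26, edgeR adjusted p = 0.12). With replicate 1 of 0 h and replicate 2 of 8 h left out it passed (−0.80, edgeR adjusted p = 0.0388). The tag acts on the protein, so these reads do not check its degradation.

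Of the other subunits of SET1/COMPASS complexes on the list, 1 of 19 tested passed, a share near that of all genes tested (4.34% fell and 3.00% rose). Cxxc1, the CpG-binding subunit of the SETD1 complexes, had 47.5, 50.8 and 48.4 CPM at 0 h and 103, 85.6 and 73.2 CPM at 24 h, without overlap. It rose by 0.83 on the log2 scale (standard error 0.20, edgeR adjusted p = 0.0111), and the call was lost without replicate 1 of 24 h (adjusted p = 0.0778). The scaffold genes Wdr5, Ash2l and Dpy30 did not pass, with log2 fold changes of 0.31, −0.15 and −0.05, and Dpy30 spread from 165 to 474 CPM within the 0 h libraries. With replicate 1 of 0 h and replicate 2 of 8 h left out, Dpy30 passed as lower. The catalytic subunit genes Setd1b, Kmt2a, Kmt2b, Kmt2c and Kmt2d ranged from −0.25 to 0.62 and did not pass either. The list as a whole had a median of 0.29. None of the 7 H3K4 demethylase genes passed (edgeR; 1 was higher and 0 lower at an unadjusted p), with a median of 0.09.

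The genes with the largest decreases among well-measured ones had varied roles. Phlda1, which encodes a pleckstrin homology-like domain protein induced by growth factors, had 68.6, 63.2 and 97.5 CPM at 0 h and 12.2, 6.55 and 6.70 CPM at 24 h. All 24 h libraries lay far below the 0 h libraries, a change of −3.15 on the log2 scale (standard error 0.35, edgeR adjusted p = 2.36e-06). Plaur, the urokinase receptor, fell from 68.5 ± 13.9 to 11.1 ± 3.10 CPM (SD, n = 3), by 2.62 on the log2 scale. Nab1, a repressor that binds EGR transcription factors, fell from 71.2 ± 8.49 to 13.5 ± 8.46 CPM (SD, n = 3). Aacs, which activates acetoacetate for lipid synthesis in the cytosol, fell from 31.2 ± 6.15 to 5.47 ± 1.71 CPM (SD, n = 3).

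At a higher level, Cavin1, a coat protein of caveolae, had 352, 249 and 311 CPM at 0 h and 75.1, 46.3 and 61.7 CPM at 24 h. Sfn, the 14-3-3 sigma protein of epithelial cells and a known p53 target, had 253, 185 and 270 CPM at 0 h and 55.4, 55.6 and 34.9 CPM at 24 h. Neither gene overlapped between groups, and the log2 fold changes were −2.31 and −2.27 (edgeR adjusted p = 9.77e-07 and 1.39e-06). Lad1, a protein of epithelial anchoring filaments, and Fry, a large scaffold for NDR kinases, fell by 2.39 and 2.35 on the log2 scale. Smim3 fell by 2.21 and lost its call without replicate 3 of 0 h (adjusted p = 0.0647).

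The genes of the highest level among those that fell by more than 2-fold came from distinct processes. Mat2a, the methionine adenosyltransferase that makes S-adenosylmethionine, the methyl donor for histone methylation, had 2504, 2150 and 2293 CPM at 0 h and 789, 888 and 829 CPM at 24 h. The groups were well separated, with a change of −1.47 on the log2 scale (standard error 0.11, edgeR adjusted p = 5.62e-09), and 14.4% of its reads were multi-mapping, meaning that they aligned to several places. Phlda2, an imprinted gene that restrains placental growth, had 1009, 1073 and 1158 CPM at 0 h and 262, 324 and 272 CPM at 24 h. It fell by 1.92 (standard error 0.12, edgeR adjusted p = 1.83e-10), the lowest adjusted p among the genes named here.

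Hspa5, the chaperone BiP of the endoplasmic reticulum, had 1067, 872 and 887 CPM at 0 h and 481, 378 and 391 CPM at 24 h. Srsf7, a serine/arginine-rich splicing factor, had 652, 642 and 701 CPM at 0 h and 305, 317 and 287 CPM at 24 h. In both genes the highest 24 h library was below the lowest 0 h library, with log2 fold changes of −1.18 and −1.13. Sparc, a matrix protein of the primitive endoderm and other cells, had 455, 397 and 466 CPM at 0 h and 198, 199 and 171 CPM at 24 h, a log2 fold change of −1.21 (edgeR adjusted p = 3.55e-06).

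Among the genes that rose, those with the largest increases started near the limit of detection. Ndrg1, a gene induced by hypoxia and differentiation, had 0.940, 8.17 and 1.11 CPM at 0 h and 29.3, 38.8 and 49.3 CPM at 24 h. The 24 h libraries were all higher, and the log2 fold change was 3.45 (standard error 0.54, edgeR adjusted p = 0.000206). Mxd4, a MAX partner that opposes MYC, rose from 8.35 ± 2.61 to 41.6 ± 4.48 CPM (SD, n = 3). Taok3, a kinase of the STE20 group, rose from 8.27 ± 2.55 to 37.5 ± 9.66 CPM (SD, n = 3). Spink1, a trypsin inhibitor, Brat1, a BRCA1-associated protein, Pja2, a ubiquitin ligase, and Aplf, a DNA end-joining factor, rose by 2.00 to 2.49 on the log2 scale. Nceh1, Dcaf5 and Ostm1 rose by 2.60, 2.34 and 2.16 but lost their call without at least 1 library. The highest adjusted p was 0.0545 for Dcaf5 (without replicate 1 of 24 h) and 0.0826 for Ostm1 (without replicate 2 of 24 h). For Nceh1 it was 0.110, with DESeq2, and its call was also lost without replicate 1 or 3 of 0 h and without replicate 2 or 3 of 24 h.

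Among the genes that rose by more than 2-fold, those of the highest level were measured more precisely. Klf3, a repressor of the Krüppel-like family, had 174, 144 and 144 CPM at 0 h and 336, 322 and 313 CPM at 24 h. Atp6v0b, a subunit of the proton pump of lysosomes, had 88.3, 65.7 and 86.1 CPM at 0 h and 203, 218 and 207 CPM at 24 h. Ddit4, an inhibitor of mTORC1 induced by stress and hypoxia, had 47.5, 53.3 and 68.3 CPM at 0 h and 164, 156 and 164 CPM at 24 h. None of these genes overlapped between groups, and they rose by 1.07, 1.39 and 1.51 on the log2 scale.

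Atf4, the transcription factor of the integrated stress response, had 115, 82.0 and 73.9 CPM at 0 h and 195, 185 and 172 CPM at 24 h, a change of 1.03 on the log2 scale (standard error 0.19, edgeR adjusted p = 0.00117). Fnip1, a folliculin partner that acts at lysosomes, and Dvl2, a Wnt signal transducer, rose by 1.49 and 1.02. Of the 24 tested genes on the list of the integrated stress response, Atf4 was the 1 that rose, whereas Atf5 and the amino acid transporter Slc7a3 fell by 1.68 and 0.63, counts to be read against the 3.00% of all genes tested that rose and the 4.34% that fell. The calls of Atf5 and Slc7a3 were lost in 6 and 5 of the alternatives, without replicate 1 of 24 h among them, and the median of the list was 0.29.

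**Figure D2:**
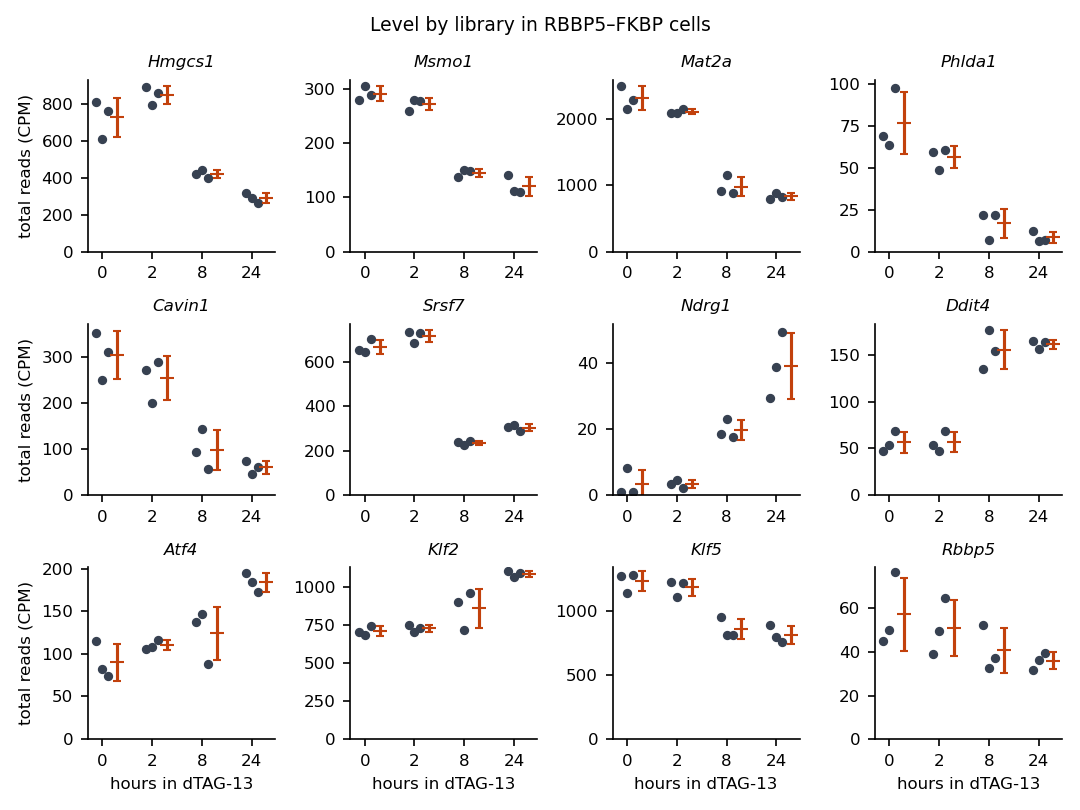
Total reads in CPM (vertical axes, each from 0) of 12 genes in each RBBP5–FKBP library at 0, 2, 8 and 24 h of dTAG-13 (points), with the mean and SD of 3 libraries beside them; an error bar that would reach below 0 stops at the axis. The 0 h and 24 h libraries lie apart, which the rule for named genes required of part of these genes, and the 2 h libraries lie near those of 0 h.

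Most of the measured genes for cholesterol synthesis and uptake fell. The list holds enzymes of the mevalonate and sterol pathways, genes of cholesterol uptake and regulators, most of which are known targets of the transcription factor SREBP2. In cells, low sterol lets SREBP2 reach the nucleus and raise these genes together, and INSIG1 holds it back. Of the 23 members tested, 14 fell and 0 rose, where 4.34% of all genes tested fell. By DESeq2 the same numbers of members passed, and at an unadjusted p 15 were lower and 0 higher. The median log2 fold change of the list was −0.999, 11 members fell by more than 2-fold, and the summed level of the list was 2888 to 3325 CPM at 0 h and 1430 to 1502 CPM at 24 h. With any 1 library left out, 11 to 13 members were lower.

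Hmgcs1, the HMG-CoA synthase of the mevalonate pathway, had 812, 612 and 761 CPM at 0 h and 319, 291 and 263 CPM at 24 h. Every 24 h library was below every 0 h library, and the log2 fold change was −1.32 (standard error 0.13, edgeR adjusted p = 2.12e-07). Msmo1, a sterol C4 demethylase, had 280, 307 and 289 CPM at 0 h and 141, 112 and 110 CPM at 24 h. Its replicates were close together in each group, without overlap, and it fell by 1.27 (standard error 0.14, edgeR adjusted p = 2.36e-06).

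Sqle, the squalene epoxidase, had 158, 118 and 117 CPM at 0 h and 53.7, 61.3 and 35.9 CPM at 24 h, and fell by 1.38 on the log2 scale (edgeR adjusted p = 6.87e-05). The sterol enzymes Nsdhl, Sc5d, Lss and Dhcr7 fell by 1.20, 0.94, 0.94 and 0.90 on the log2 scale, and Stard4, a sterol carrier, by 1.29. Idi1, an isomerase of the mevalonate pathway, and Insig1 fell by 1.27 and 1.17, but 94.9% and 39.2% of their reads were multi-mapping.

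The 9 members that did not pass included the kinases and the decarboxylase of the mevalonate pathway and the regulator itself. Mvk, Pmvk and Mvd had log2 fold changes of −0.07, −0.02 and 0.06, and Srebf2, which encodes SREBP2, had −0.14. Acat2, Fdps, Ebp and Hsd17b7 had −0.21, −0.34, −0.52 and −0.57. Tm7sf2 had 1.41, 5.33 and 8.13 CPM at 0 h and 0.873, 3.27 and 3.35 CPM at 24 h. No member was significantly higher, and Mvd was the 1 of the 23 members with a log2 fold change above 0.

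**Figure D3:**
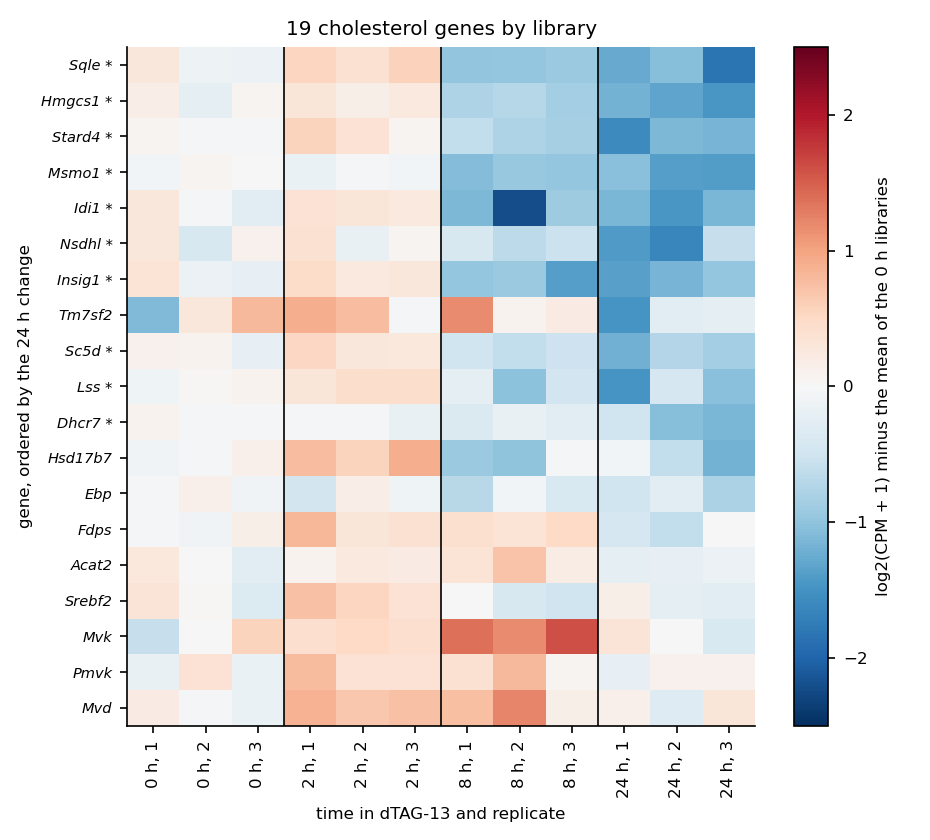
Level of 19 of the tested cholesterol genes (rows, ordered by the 24 h change) in the 12 RBBP5–FKBP libraries (columns, by time and replicate), as log2(CPM + 1) minus the mean of the 0 h libraries; an asterisk marks the 10 of them that passed the test at 24 h. Blue (lower) fills most cells of the marked genes at 8 h and 24 h, while most cells at 2 h are near white or red.

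Promoter sequences of these genes were taken from the RefSeq table (GRCm38.p6), in which 16 of the 23 members were matched. The factor NF-Y, a known partner of SREBP2, binds CCAAT, and a well-known SREBP site reads TCACNCCAC, where N is any base. Both were searched on both strands. In the 300 bases around the start site, CCAAT stood in 14 of the 16 promoters (87.5%) and in 39.7% of the promoters of all genes tested. It stood in 7 of the 8 matched members that fell and in 7 of the 8 that did not pass, so that these letters did not separate the groups. TCACNCCAC stood in 1 of the 16 (6.25%), that of Hmgcs1, and in 1.01% of all promoters. The 170 bases before the start site are shown for the 4 matched members that fell and held at least 2 matches there, and for Mvk, which did not pass and held the most, so that both kinds can be compared. Capitals mark CCAAT or its reverse complement ATTGG and, in Hmgcs1, the SREBP match. They lie at chr13:119690181-119690350 (Hmgcs1, plus strand), chr8:64733579-64733748 (Msmo1, minus strand), chr13:8885436-8885605 (Idi1, plus strand), chrX:72918351-72918520 (Nsdhl, plus strand) and chr5:114444099-114444268 (Mvk, plus strand), each written 5′ to 3′ along the gene.
Hmgcs1: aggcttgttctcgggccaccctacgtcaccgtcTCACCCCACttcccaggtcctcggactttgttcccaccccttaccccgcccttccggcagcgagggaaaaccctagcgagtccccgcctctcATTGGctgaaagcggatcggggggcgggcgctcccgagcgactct
Msmo1: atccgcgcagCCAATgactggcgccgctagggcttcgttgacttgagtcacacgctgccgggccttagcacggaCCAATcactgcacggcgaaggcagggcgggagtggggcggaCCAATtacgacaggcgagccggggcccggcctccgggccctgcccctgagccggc
Idi1: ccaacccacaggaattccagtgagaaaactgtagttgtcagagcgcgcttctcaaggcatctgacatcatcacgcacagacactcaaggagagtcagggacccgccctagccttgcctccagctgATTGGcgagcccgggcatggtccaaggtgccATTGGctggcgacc
Nsdhl: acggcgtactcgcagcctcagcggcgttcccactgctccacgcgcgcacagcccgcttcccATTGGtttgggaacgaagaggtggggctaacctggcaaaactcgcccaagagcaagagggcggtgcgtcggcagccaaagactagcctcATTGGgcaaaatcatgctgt
Mvk: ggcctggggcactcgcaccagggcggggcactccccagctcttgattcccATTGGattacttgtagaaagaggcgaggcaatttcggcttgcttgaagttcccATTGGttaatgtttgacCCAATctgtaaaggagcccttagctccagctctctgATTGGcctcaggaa

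The RefSeq start site lay 214 bases from the annotated gene start for Msmo1 and 0 to 105 bases from it for the others shown. A match is a stretch of letters and not a measured binding site. Msmo1, with 3 copies of CCAAT, fell by 1.27, and Mvk, with 4 copies, had a log2 fold change of −0.07.

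Promoters with few CpG dinucleotides were more frequent among the genes that fell than among those that rose. At most 5 CpG in the 300-base window were found in 17 of the 129 matched genes that fell by more than 2-fold (13.2%), in 2 of the 127 matched genes that rose (1.57%), and in 398 of the 7737 matched genes of all tested (5.14%). The median number was 21, 23 and 22 CpG. Over all genes that passed, of any size of change, the shares were closer, at 29 of 321 matched lower genes (9.03%) and 7 of 223 matched higher genes (3.14%). These shares are a description and were not tested.

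Several other lists had more lower than higher members, to be read against the 4.34% of all genes tested that fell and the 3.00% that rose. Of 12 genes of FGF and ERK feedback, 5 fell and 0 rose (edgeR; 6 and 0 at an unadjusted p, and 5 and 0 by DESeq2), with a median of −0.48. They were the inhibitor Spred1, the phosphatases Dusp4 and Dusp5 and the ETS factors Etv4 and Etv5. Spred1 fell from 205 to 97.5 CPM, by 1.07 on the log2 scale, and Etv5 from 415 to 277 CPM, by 0.58, with 38.1% of its reads multi-mapping. The count depended on single libraries, with 3 without replicate 3 of 0 h or replicate 2 of 24 h and 1 without replicate 3 of 24 h, and Etv5 had an adjusted p of 0.0521 without the last.

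Of 22 NRF2 targets and metallothioneins, genes of the oxidative and metal response, 6 fell and 0 rose (edgeR; 9 and 0 at an unadjusted p, and 6 and 0 by DESeq2). Mt2, a metallothionein, had 2748, 2599 and 2418 CPM at 0 h and 1516, 1647 and 1559 CPM at 24 h, and the thioredoxin reductase Txnrd1 had 361, 341 and 386 CPM at 0 h and 203, 203 and 244 CPM at 24 h. Neither gene overlapped between groups, and they fell by 0.72 and 0.75. Mt1, Gstm1, Gsta4 and Me1 fell by 0.58, 0.93, 0.45 and 0.91. The median of the list was −0.27.

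Of 28 heat shock and chaperone genes, 5 fell and 0 rose (edgeR; 9 and 1 at an unadjusted p, and 6 and 0 by DESeq2). Besides Hspa5, these were Hsph1, an HSP110 chaperone, which fell from 304 ± 46.7 to 142 ± 17.4 CPM (SD, n = 3), and Dnajb1, Chordc1 and Hspa8. Hspa8 is uncertain, since 99.9% of its reads were multi-mapping. The count was 3 and 2 without replicates 1 and 3 of 24 h, and the median of −0.10 was close to that of all genes.

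Of 40 SR and hnRNP splicing genes, 6 fell, namely Srsf3, Srsf5, Srsf6, Srsf7, Tra2a and Tra2b, all of which encode SR or SR-related proteins, and none rose (edgeR; 8 lower and 4 higher at an unadjusted p, and 7 and 2 by DESeq2). Srsf3 had 1089, 1091 and 1107 CPM at 0 h and 691, 701 and 739 CPM at 24 h, and Srsf6 fell from 543 to 360 CPM. The groups did not overlap in either gene. The median of the list was 0.06.

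Of 50 genes of DNA replication and the G1/S transition, 8 fell and 1 rose (4.34% and 3.00% of all genes tested), and the median was −0.07. The cyclin gene Ccne1 had 447, 505 and 460 CPM at 0 h and 247, 262 and 246 CPM at 24 h, and Ccnd2 had 180, 164 and 199 CPM at 0 h and 89.5, 96.8 and 80.4 CPM at 24 h. They fell by 0.90 and 1.02 without overlap. Mcm10, an initiation factor, fell from 170 to 94.5 CPM. The others were Ccnd3, Cdc6, Cdc25a, Clspn and Uhrf1, and the gene that rose was Pold2. Without replicate 2 of 0 h, 5 were lower. Pold2 had an adjusted p of up to 0.149, and its call was lost without any 1 of the 6 libraries. Uhrf1 lost its call in 8 of the 15 alternatives that tested it, with an edgeR adjusted p of up to 0.200.

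Single members of other lists also fell, where 4.34% of all genes tested fell and 3.00% rose. Egr1, an immediate early factor of the serum response, had 57.3, 79.2 and 58.7 CPM at 0 h and 17.5, 18.7 and 12.9 CPM at 24 h, and fell by 1.99 (standard error 0.32, edgeR adjusted p = 0.000354). Of the 16 immediate early genes tested, Jund fell too, by 0.96, and Btg1 rose by 0.89, although 41.3% and 91.1% of their reads were multi-mapping and Btg1 lost its call without replicate 3 of 0 h or replicate 1 or 3 of 24 h. Of 19 genes of the actin cytoskeleton and of SRF and YAP targets, Srf, Tagln2 and Amotl2 fell by 0.99, 0.75 and 1.05, the last not without replicate 2 of 0 h (adjusted p = 0.061), and 6 fell without replicate 1 of 0 h. The median was −0.01 for the immediate early list and −0.34 for the actin list. At an unadjusted p (edgeR), 4 members were lower and 1 higher in the first list, and 7 and 0 in the second.

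Markers of other cell types mostly did not pass, and those that passed fell, where 4.34% of all genes tested fell and 3.00% rose. Of 20 genes of the primitive endoderm, 7 were tested, and Sparc, Lamb1 and Apoe fell by 1.21, 0.91 and 0.75, while none rose (edgeR; 3 lower and 1 higher at an unadjusted p). The summed level of the 20 was 1892 to 2167 CPM at 0 h and 1150 to 1393 CPM at 24 h, and 4 had no read in these libraries. Apoe had 1353, 1071 and 1164 CPM at 0 h and 764, 793 and 581 CPM at 24 h. Of 7 trophectoderm genes tested, Krt8 fell by 1.84, with 66.8% of its reads multi-mapping, and its call was lost without replicate 3 of 0 h or replicate 1 of 24 h. The median of the 7 was −1.36, and 4 were lower and 0 higher at an unadjusted p (edgeR). The 12 genes on that list summed to 138 to 172 CPM at 0 h and 95.4 to 131 CPM at 24 h, without overlap. The summed level of 13 fibroblast genes was 345 to 437 CPM at 0 h and 386 to 438 CPM at 24 h, and none of the 3 that were tested passed (edgeR; 1 was higher at an unadjusted p). The 14 neural genes summed to 145 to 168 CPM at 0 h and 175 to 232 CPM at 24 h, without overlap, 3 had no read in these libraries, and none of the 7 tested passed (edgeR; 0 lower and 3 higher at an unadjusted p). The part of these markers in other results was not tested. Of 9 genes of the formative state and the epiblast, the DNA methyltransferase gene Dnmt3a fell by 1.18, and its call was lost without replicate 1 of 0 h and without replicate 1 or 2 of 24 h.

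More members rose than fell in the lists of lysosomal, hypoxia and glycolysis genes, where 3.00% of all genes tested rose and 4.34% fell. Of 35 genes of lysosomes and autophagy, 6 rose and 1 fell, with a median of 0.20. Lamp2, a glycoprotein of the lysosomal membrane, went from 36.2 ± 4.54 to 79.3 ± 8.80 CPM (SD, n = 3) without overlap. It rose by 1.13 (standard error 0.22, edgeR adjusted p = 0.00175), and Lamp1, the receptor Scarb2, the enzyme Neu1 and the autophagy gene Wipi1 rose by between 0.39 and 1.98. Cd63, a tetraspanin, fell by 0.49, and its call was lost without replicate 2 or 3 of 0 h or of 24 h. The count of higher members was 2 without replicate 2 of 0 h, replicate 1 of 24 h or replicate 3 of 24 h, and 3 without replicate 3 of 0 h or replicate 2 of 24 h.

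Of 17 hypoxia genes, Ndrg1, Ddit4 and Bnip3 rose, each by more than 2-fold and in each of the 6 fits with 1 library left out. None fell (edgeR; 0 were lower and 5 higher at an unadjusted p, and 0 and 3 passed by DESeq2). Bnip3, a mitophagy receptor, had 49.3, 69.9 and 43.2 CPM at 0 h and 113, 118 and 167 CPM at 24 h, and 23.5% of its reads were multi-mapping. Of 18 glycolysis genes, the glucose transporters Slc2a1 and Slc2a3 and the aldolase Aldoa rose by 0.90, 0.63 and 0.43, and Ldhb fell by 0.96. Slc2a1 had 214, 371 and 351 CPM at 0 h and 629, 520 and 595 CPM at 24 h. The medians of the 2 lists were 0.25 and 0.04.

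Most naive pluripotency genes did not pass, and those that did changed in both directions and by less than 2-fold. Of the 29 tested, 19 did not pass, 5 fell (4.34% of all genes tested), among them Klf5, Dppa2, Lifr and Dppa3, and 5 rose (3.00% of all genes tested), namely Klf2, Esrrb, Tbx3, Tdgf1 and Tet2. Klf5 had 1279, 1148 and 1288 CPM at 0 h and 891, 797 and 758 CPM at 24 h, and Klf2, of the same family, had 703, 683 and 747 CPM at 0 h and 1107, 1065 and 1092 CPM at 24 h. Neither overlapped between groups, and the log2 fold changes were −0.60 and 0.61 (edgeR adjusted p = 0.001 and 0.00124). Esrrb, an orphan nuclear receptor, rose from 365 to 560 CPM, and Lifr, the LIF receptor, fell from 219 to 137 CPM.

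Klf5, Klf2, Esrrb, Lifr and Dppa2 passed under each alternative that was run, although 49.1% of the reads of Dppa2 were multi-mapping. The other 5 lost the call without single libraries, and without any 1 of replicate 3 of 0 h and replicates 1, 2 and 3 of 24 h the counts were 3 lower and 2 higher. The central factors did not pass. Sox2 had a log2 fold change of −0.31 (edgeR adjusted p = 0.0951), Nanog of 0.30 (edgeR adjusted p = 0.147) and Klf4 of −0.01. Pou5f1 had 0.06, but 97.6% of its reads were multi-mapping.

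Genes of large housekeeping groups had medians near that of all genes, of which 4.34% fell and 3.00% rose. Of 75 cytosolic ribosomal protein genes, 5 rose, Rps24 by 0.88 and Rpl7a by 0.62 among them, the last with 94.6% of its reads multi-mapping, and the median was 0.07. Of 73 genes of the respiratory chain, 1 rose and 1 fell. Of 33 proteasome genes and of 38 genes of pausing, elongation and Integrator, 0 passed (edgeR; 5 and 0 were higher and lower at an unadjusted p in the first list, and 3 and 3 in the second), with medians of 0.10 and 0.03. Of 111 genes of ribosome biogenesis, 5 fell and 1 rose, with a median of −0.01, and Rrp1b, which passed under each alternative run, fell from 350 to 184 CPM.

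**Figure D4:**
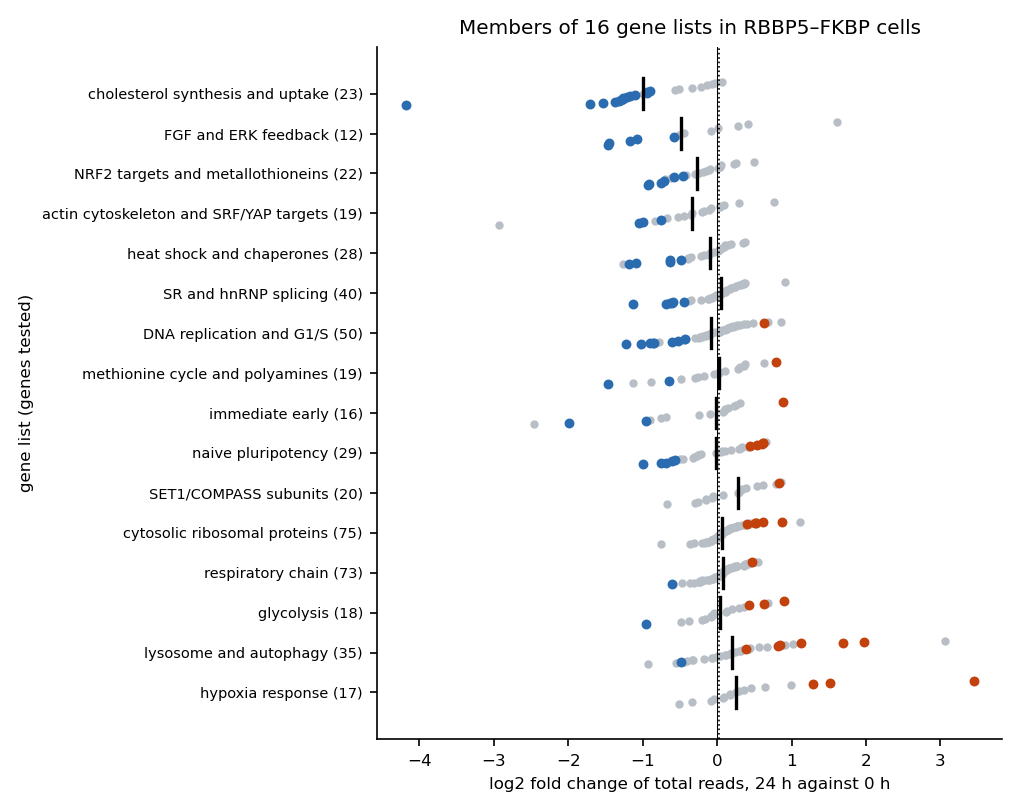
Log2 fold change at 24 h against 0 h of every tested member of 16 gene lists, with the number tested in brackets, blue where a member fell, orange where it rose and grey where it did not pass; black bars are list medians and the dotted line the median of all genes tested, 0.02. The cholesterol list has its median at −0.999, and those of the others shown lie between −0.48 and 0.29.

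Total reads had changed by 8 h, and few genes passed between 8 h and 24 h. At 8 h, 480 genes were lower (4.96%) and 406 higher (4.20%) than at 0 h, and those comparisons share the 0 h libraries with the comparison at 24 h. The counts at 8 h were 297 and 221 without replicate 2 of 0 h, 275 and 213 without replicate 3 of 0 h and 243 and 179 without replicate 1 of 8 h, and 230 genes were higher without replicate 2 of 8 h. The 177 genes that were lower at 24 h had median log2 fold changes of −0.35, −1.14 and −1.42 at the successive times 2, 8 and 24 h, and the 160 higher genes had 0.54, 1.40 and 1.51. These genes were chosen at 24 h against the same 0 h libraries, so the same sign at 2 h and 8 h is a description only. At 2 h no gene passed (edgeR; 413 were lower and 395 higher at an unadjusted p). Against 8 h directly, 7 genes were lower (0.0723%) and 7 higher (0.0723%) at 24 h by edgeR. Single libraries moved these numbers, to 53 and 116 without replicate 3 of 8 h, 25 and 33 without replicate 1 of 0 h, 2 and 1 without any 1 library of 24 h or without replicate 1 of 8 h, 3 and 4 without replicate 2 of 8 h, and 4 and 1 or 5 and 1 without replicate 2 or 3 of 0 h. More genes passed between 8 h and 24 h by DESeq2 and without a filter on low counts, as given below.

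Sparc fell after 8 h. Its log2 fold change was 0.11 at 8 h and −1.21 at 24 h, and the difference of −1.32 between those times passed the test (edgeR adjusted p = 1e-05). Calcoco2, an autophagy receptor, and Mfge8, a secreted glycoprotein, had −1.38 and −0.97 at 24 h but 0.07 and 0.14 at 8 h, and Ccnd2 had −1.02 and −0.21. Phlda2 had −2.52 at 8 h and −1.92 at 24 h, a difference of 0.60 that also passed. Mvk rose by 1.35 at 8 h and was at −0.07 at 24 h. Sparc and Phlda2 were named by the rule for named genes, and Calcoco2, Mfge8 and Mvk were chosen after their values were seen.

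The summed level of the cholesterol list was higher at 2 h than at 0 h and lower from 8 h on. It ran from 3417 to 3723 CPM at 2 h, from 1913 to 2120 CPM at 8 h and from 1430 to 1502 CPM at 24 h, with a median log2 fold change of 0.31, −0.56 and −0.999 over the members. The 2 h libraries were all above those of 0 h (2888 to 3325 CPM), and the 8 h and 24 h libraries all below. Mat2a had −1.24 at 8 h and −1.47 at 24 h, Srsf7 had −1.49 and −1.13, and Atf4 had 0.46 at 8 h and 1.03 at 24 h.

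T>C reads of the same libraries, expressed as CPM of all reads, show RNA made in the last 60 min. In RBBP5–FKBP cells T>C reads fell for 1231 genes (25.9%) and rose for 9 (0.189%) of the 4761 tested at 24 h, with a median log2 fold change of −0.91 over all genes, so the values of single genes are read against that median. Of the 177 genes whose total reads fell by more than 2-fold, 111 could be tested, 68 had fewer T>C reads, and their median was −2.13. Of the 160 genes that rose, 54 could be tested, 1 had more T>C reads, and their median was 0.48. Total and T>C reads come from the same libraries, so the one does not check the other.

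The T>C reads of most measured cholesterol genes changed by more than the median of all genes. Hmgcs1 had 139, 105 and 150 T>C CPM at 0 h and 15.7, 21.5 and 16.8 T>C CPM at 24 h. Msmo1 had 70.0, 93.0 and 74.6 T>C CPM at 0 h and 34.9, 16.8 and 14.4 T>C CPM at 24 h. Neither gene overlapped between groups, with log2 fold changes of −2.87 and −1.84, and the median over the 16 members tested was −2.23. Among the higher genes, Atf4 and Ddit4 had T>C changes of −0.02 and 0.33, which did not pass the test but stand above the median of −0.91.

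The DPY30–mAID line, in which auxin removes another shared subunit of the same complexes, was measured in the same way at 0 h and 24 h, with 3 libraries each and its own 0 h libraries. The lines differ in the protein removed, the tag, the ligand, the clone and the F-box protein OsTIR1, and these cannot be told apart here. Per the methods, OsTIR1 was brought into DPY30–mAID clones on a plasmid, followed by hygromycin selection. At 24 h of auxin 1679 genes were lower (17.0%) and 1570 higher (15.9%) of 9848 tested, with a median of 0.01. Among the 9328 genes tested in both lines, 198 genes were lower in both, 48.1% of the 412 lower in RBBP5–FKBP cells and 12.04% of the 1644 lower in DPY30–mAID cells. Higher in both were 110 genes, 38.7% of 284 and 7.31% of 1505. Of the 177 genes that fell by more than 2-fold, 169 were tested in DPY30–mAID cells, where 75 were lower and 8 higher, and of the 160 genes that rose, 154 were tested, where 57 were higher and 6 lower.

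The difference between the 24 h changes was tested in a fit of both lines. The change was more negative in RBBP5–FKBP cells for 604 genes (5.92%) and more positive for 686 (6.73%) of 10196. Within the cholesterol list it was more negative for 11 members and more positive for none, and the median change in DPY30–mAID cells was 0.07 over 22 members, of which 5 fell and 3 rose. Msmo1 had 99.1, 148 and 116 CPM at 0 h and 161, 151 and 145 CPM at 24 h of auxin, a log2 fold change of 0.33 that did not pass, against −1.27 with dTAG-13. The difference was −1.61 (edgeR adjusted p = 6.38e-07), and it was −1.34 for Insig1 and −1.42 for Stard4. Hmgcs1 fell in both lines, by 1.32 with dTAG-13 and by 0.44 with auxin, and the difference of −0.89 passed (edgeR adjusted p = 0.000209). Levels at 0 h, scaled within each line, also differed for some members. The RBBP5–FKBP means were 292, 728, 251 and 107 CPM for Msmo1, Hmgcs1, Insig1 and Stard4. The DPY30–mAID libraries of 0 h had at most 148, 519, 201 and 85.5 CPM. Sqle had a mean of 131 CPM against 127 to 156 CPM. The part of these 0 h levels in the difference was not tested.

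Outside that list, Hspa5 fell by 1.18 in RBBP5–FKBP cells and rose by 0.68 in DPY30–mAID cells, and Egr1 fell by 1.99 and rose by 3.06, so both went in opposite directions. Their 0 h levels differed between the lines, and the part of this was not tested. Egr1 had a mean of 65.1 CPM in RBBP5–FKBP cells and 7.01, 5.55 and 4.45 CPM in the DPY30–mAID libraries. Hspa5 had a mean of 942 CPM and 535, 595 and 470 CPM. Phlda1 did not change detectably in DPY30–mAID cells (−0.01), and the difference was −3.15 (edgeR adjusted p = 2.07e-07). Esrrb and Klf2 rose in RBBP5–FKBP cells and had −0.82 and −0.15 in DPY30–mAID cells, with differences of 1.43 and 0.76 that passed. Mat2a fell in both lines, by 1.26 in DPY30–mAID cells, as did Phlda2, by 1.36, and Bnip3 rose in both, by 3.08 in DPY30–mAID cells.

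As over all genes tested, of which 17.0% fell and 15.9% rose with auxin against 4.34% and 3.00% with dTAG-13, more members of several large groups passed in DPY30–mAID cells. Of 75 cytosolic ribosomal protein genes, 53 rose with auxin against 5 with dTAG-13, and the difference passed for 19, all more negative in RBBP5–FKBP cells. Of 73 genes of the respiratory chain 49 rose with auxin against 1, and the difference was more negative in RBBP5–FKBP cells for 24. Of 40 SR and hnRNP genes 24 fell with auxin against 6, and the difference was more positive in RBBP5–FKBP cells for 17 members and more negative for 4. Of the 20 SET1/COMPASS genes 10 fell with auxin against 0, and the difference was more positive in RBBP5–FKBP cells for 8. The DPY30–mAID libraries also differed between 0 h and 24 h in the share of multi-mapping reads, 22.8% to 23.3% against 24.9% to 25.9%, and in the share of mapped reads that lay in the intervals, 43.4% to 44.5% against 36.6% to 40.0%. Those shares overlapped between 0 h and 24 h of RBBP5–FKBP cells (23.1% to 23.7% against 23.5% to 24.3%, and 38.5% to 44.0% against 39.7% to 42.6%), and their part in the results was not tested.

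**Figure D5:**
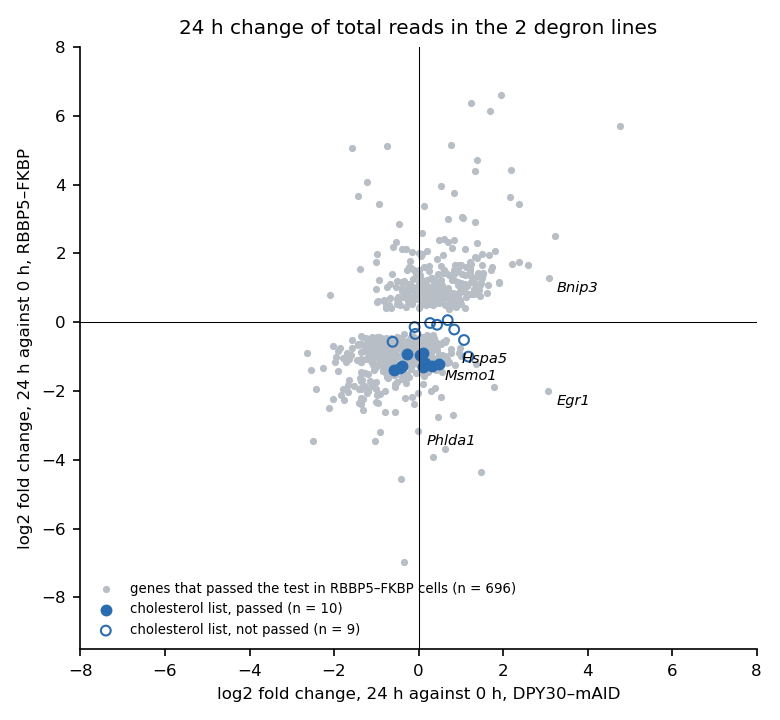
Log2 fold change of total reads at 24 h against 0 h in DPY30–mAID cells (horizontal axis) and RBBP5–FKBP cells (vertical axis) for the 696 genes that passed the test in RBBP5–FKBP cells and were tested in both lines, with 19 genes of the cholesterol list in blue (filled where passed in RBBP5–FKBP cells). Genes lie in all quadrants, the 10 blue points that passed sit at −0.90 to −1.38 on the vertical axis with values on either side of 0 on the horizontal axis, and grey points near 0 on the vertical axis are missing because of the selection.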

How the data were processed

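SLAM-seq libraries of RBBP5–FKBP mES cells (0, 2, 8 and 24 h of dTAG-13) and DPY30–mAID mES cells (0, 2, 8 and 24 h of auxin) were used, 3 per group, and 34 other files were not used. Per the file headers, the authors counted reads with SlamDunk 0.3.4 in 46420 3′ UTR intervals of protein-coding genes (GRCm38/mm10), and the deposited counts hold all reads, T>C reads and multi-mapping reads per interval. The deposited CPM column, scaled by the authors, was not tested. HISAT2 2.2.1, which the submitters' processing notes also name, served per the methods for Quant-seq libraries, not used here. Multi-mapping was allowed, and no molecular identifiers were used, so that reads are not independent molecules. Reads lie at 3′ ends, and isoforms with another end were not followed.

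Counts were summed per gene (20177 genes), 0 per-sample columns being left aside. Totals of the 0 h and 24 h libraries of RBBP5–FKBP cells ran from 2074731 to 2852331 reads, which limits genes of few reads most. Genes that averaged 10 or more reads at any time point were fitted over the 12 libraries of the line with edgeR 4.0.16 (quasi-likelihood F test, TMM, R 4.3.3), and p-values were adjusted over all genes tested. A gene passed at an adjusted p below 0.05. T>C reads were fitted with the total library sizes, and the difference between lines as an interaction over both. The study calls the libraries of a group biological replicates, while the labels do not say whether they came from separate cultures, and p-values measure the spread between them. Replicate numbers were not used as pairs outside the replicate block, since the labels do not say what the numbers share. For libraries of the same number, deviations from the group means correlated on average at −0.03, −0.06 and 0.04. These values cannot show whether a culture or day was shared.

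The comparison, gene lists and tests were chosen with earlier results of these data known. The genes named by rule were the 10 with the lowest and 10 with the highest log2 fold change, and the 6 lower and 6 higher with the highest mean CPM, among those beyond 2-fold whose groups did not overlap, averaging 50 or more reads in the higher group and at most 20% multi-mapping reads. Added were SET1/COMPASS and naive pluripotency members and, of each of 43 lists, up to 3 passing genes with the lowest p per direction (all of 4 or fewer). Other genes were named after their values were seen. Alternatives were DESeq2 1.42.0, other scalings and filters, the most-read interval per gene, the 0 h and 24 h libraries only, a replicate block, genes with many multi-mapping reads left out, and each library left out in turn.

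In simulated counts for 24 h against 0 h (9676 genes, 200 changed), 85% of genes changed by a log2 fold of 2 and 69% of those changed by 1.5 were called, and 7 of 161 calls were false (4.35%). Changed genes averaged 10 or more reads, no smaller change was simulated, and no library was made to stand apart. The genes that passed had medians of −0.91 (lower) and 1.05 (higher), so these shares do not describe all of them. Python 3.11.15, numpy 2.4.6, pandas 2.3.3, scipy 1.17.1 and matplotlib 3.10.9 were used for the rest. Promoters came from RefSeq (GRCm38.p6, 250 bases before to 50 after the start site). Some members of the lists, such as Setd1a, Cyp51 and Fdft1, were not analysed here, and single values of some genes are not reported here, though counts and medians of the lists include them.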

Additional observations from a re-analysis of the deposited data

Results flagged for a closer look

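The change of total reads at 24 h differed between RBBP5–FKBP and DPY30–mAID cells, by a test of the difference itself (edgeR interaction, adjusted p below 0.05), for 604 genes that were more negative and 686 that were more positive in RBBP5–FKBP cells. The protein removed, the tag, the ligand, the clone and the introduction of OsTIR1 differ between the lines and cannot be told apart. Levels at 0 h also differed between the lines for some of the genes named below, and the part of this was not tested.

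Among the lower genes of RBBP5–FKBP cells, the difference between the log2 fold changes was −3.15 for Phlda1, −2.29 for Nab1, −1.83 for Plaur and −1.30 for Cavin1. It was −1.86 for Hspa5, the chaperone BiP, −1.09 for Sparc, −1.07 for Srsf7 and −0.56 for Phlda2. Phlda1, Nab1, Sparc and Srsf7 did not pass in DPY30–mAID cells.

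In the cholesterol list the differences included −1.70 for Nsdhl, −1.61 for Msmo1, −1.60 for Ebp, −1.42 for Stard4, −1.34 for Insig1, −1.06 for Acat2, −0.98 for Sc5d, −0.89 for Hmgcs1, −0.88 for Idi1 and −0.79 for Sqle. Ebp and Acat2 did not pass in RBBP5–FKBP cells (−0.52 and −0.21) and rose in DPY30–mAID cells (1.07 and 0.84).

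Among the higher genes the difference was 2.86 for Dcaf5, 2.79 for Taok3, 2.52 for Nceh1, 2.43 for Brat1 and 1.99 for Aplf, all of which had a mean below 10 CPM at 0 h in RBBP5–FKBP cells. At higher levels it was 1.00 for Dvl2, 0.90 for Ddit4 and 0.79 for Atf4.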

How the results depend on the processing

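Of the 112 named genes that passed, 64 did so with the same sign under each of the 16 alternatives that tested them, 48 lost the call under at least 1, and 0 changed sign. With 1 library left out, 259 to 390 genes were lower and 139 to 287 higher at 24 h, 131 to 169 and 93 to 174 of them beyond 2-fold. At 8 h the ranges were 243 to 548 lower and 179 to 440 higher, and for 24 h against 8 h 2 to 53 and 1 to 116. An unadjusted p gave 1172 lower and 1083 higher genes, 401 and 453 beyond 2-fold. With replicate 1 of 0 h and replicate 2 of 8 h left out, an alternative chosen after seeing the data, 479 genes were higher at 24 h than at 0 h, and against 8 h 16 were lower and 24 higher. For 24 h against 8 h, 45 and 33 genes passed by DESeq2, 51 and 120 without a filter, and 4 (scaling without TMM) or 1 (most-read interval) were higher. The replicate block gave 377 lower and 248 higher genes at 24 h and, against 8 h, 4 and 1. The numbers share no stated culture or day. The log2 fold changes that changed sign were those of genes that did not pass. Klf4 was at 0.0235 without TMM factors and 0.0118 with a minimum mean of 50 reads, Kmt2a at 0.0425 with the most-read interval, and Nr0b1 at −0.0706 without both libraries named above. With 1 library left out, Klf4 ran from −0.0792 to 0.0346, Kmt2a from −0.17 to 0.12, Nr0b1 from −0.0775 to 0.62, Dpy30 from −0.39 to 0.19, Hcfc1 from −0.12 to 0.0022, Pou5f1 from −0.0525 to 0.20 and Fgf4 from −0.0508 to 0.18. The cause was not tested, and a library left out also lowers the number of samples. Depth limits both sets beyond 2-fold, since 38 of the 160 higher genes had a mean below 10 reads at 0 h and 28 of the 177 lower genes at 24 h.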

Other observations

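Fatty acid synthesis, which SREBP factors are also known to govern, was examined after the values of the cholesterol list were seen. Of 11 genes tested, 3 fell and 0 rose (edgeR; 4.34% and 3.00% of all genes tested), with a median log2 fold change of −0.45. Fasn, the fatty acid synthase, had 373, 248 and 242 CPM at 0 h and 113, 149 and 128 CPM at 24 h, without overlap, and fell by 1.14. Acly, which makes cytosolic acetyl-CoA, fell from 413 to 265 CPM, and Me1, which makes NADPH, by 0.91. Fasn also fell in DPY30–mAID cells, by 1.98. Of 13 genes on a list of cholesterol efflux and storage, 0 fell and 1 rose, Nceh1, near the shares of all genes, and the median was 0.07. That list also held Scap, Mbtps1, Mbtps2 and Insig2, which regulate SREBP factors and enter its count and median.

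The 6788 genes tested that had at least 100 reads in the 0 h libraries of DPY30–mAID cells together were also divided into 5 groups of nearly equal size by the share of T>C reads in DPY30–mAID cells at 0 h, a measure of how fast an mRNA is replaced that does not use the RBBP5–FKBP libraries. From the group with the lowest share to that with the highest, 5.30%, 5.15%, 5.67%, 5.81% and 6.12% of genes were lower at 24 h, and 2.95%, 2.72%, 3.46%, 3.38% and 3.69% higher. These shares are a description and were not tested.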
